A study of Homo sapiens with 6 samples.

Results

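The genes of mitochondrial ribosomal proteins were followed in HCT116, HT29 and SW480, established human lines from colorectal cancers, after depletion of BZW2, a mimic of the translation initiation factor eIF5. They were chosen by name, as every gene identifier with 1 row in the deposited matrix whose symbol begins with MRPL or MRPS, with pseudogenes and antisense genes left out. This gave 70 of the 13021 identifiers with 1 row, 44 of them named for the large subunit (MRPL) and 26 for the small subunit (MRPS). Each line had been infected with a lentivirus carrying BZW2 shRNA or a lentivirus carrying a non-targeting shRNA, and both were made stable by puromycin at 1 µg/ml. RNA was sequenced once for each line and treatment, which gave 6 libraries. All knockdown titles carry the same mark, SH2, and all control titles SCR, and both HCT116 titles give the line as HCT116WT. The labels name no repeat cultures, so the 3 lines served as replicates. The main limma p-values set the difference between knockdown and control against its spread among these 3 lines, moderated by the spread pooled over all genes. Fits with a line left out rest on the lines that remain, and the fit with no block for the line ignores the pairing.

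Mitochondrial ribosomes translate the few mRNAs that the mitochondrial genome encodes, all of them for subunits of the respiratory chain and the ATP synthase. Their RNA comes from the mitochondrial genome, whereas their proteins are encoded in the nucleus, made in the cytosol and imported. Some of these proteins have counterparts in bacterial ribosomes and the others are specific to mitochondria. Tumour cells, like other cells, depend on this translation for respiration, and nuclear respiratory factor 1 (NRF1), ETS family factors such as GABPA, and YY1 are known regulators of many nuclear genes of mitochondrial proteins.

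The promoters of the 70 genes were searched for the letters bound by these 3 kinds of factor, GCGCA, any base and GCGC for NRF1, CCGGAAG for ETS factors, and AA, any base and ATGGCGGC for YY1, on both strands, from 250 bases before to 50 after the annotated start. RefSeq promoters on GRCh38.p14 were matched for 61 of the 70 genes. The ETS letters were in 44.3% of these promoters, against 24.5% of the promoters of 8698 genes listed in all 3 lines. The YY1 letters were in 21.3% against 4.37%, and the NRF1 letters in 13.1% against 14.5%. The following windows run from 120 bases before to 30 after the start and are read 5′ to 3′ on the strand of the gene. These 7 are examples of genes that are described below and carry the ETS or YY1 letters, which are in capitals. Others described below, such as MRPL9, MRPL16 and MRPL27, carry them too and are not shown. MRPL38, MRPL18, MRPS12 and MRPS34 are among the genes with an unadjusted limma p under 0.05, MRPS10 and MRPS31 are among the lowest of the small subunit genes, and MRPS18A is 1 of 3 paralogs. MRPL38, MRPL18, MRPS12, MRPS34 and MRPS18A had higher values in the knockdown library of all 3 lines, and MRPS10 and MRPS31 were over 1.5-fold lower in that of HCT116.
MRPL38 (chr17:75904855-75905004, minus strand): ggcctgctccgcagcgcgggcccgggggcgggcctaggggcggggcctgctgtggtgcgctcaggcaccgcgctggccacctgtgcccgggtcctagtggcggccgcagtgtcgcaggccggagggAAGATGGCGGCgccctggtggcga
MRPL18 (chr6:159790347-159790496, plus strand): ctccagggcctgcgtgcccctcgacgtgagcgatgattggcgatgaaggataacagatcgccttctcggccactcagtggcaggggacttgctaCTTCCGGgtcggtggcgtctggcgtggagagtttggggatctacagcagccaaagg
MRPS12 (chr19:38930824-38930973, plus strand): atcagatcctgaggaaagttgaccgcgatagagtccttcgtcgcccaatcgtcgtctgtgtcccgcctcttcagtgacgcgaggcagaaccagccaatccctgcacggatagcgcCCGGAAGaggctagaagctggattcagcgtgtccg
MRPS34 (chr16:1773105-1773254, minus strand): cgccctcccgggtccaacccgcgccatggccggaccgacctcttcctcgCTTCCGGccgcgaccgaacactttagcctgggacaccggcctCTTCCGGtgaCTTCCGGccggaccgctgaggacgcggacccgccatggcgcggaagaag
MRPS18A (chr6:43687762-43687911, minus strand): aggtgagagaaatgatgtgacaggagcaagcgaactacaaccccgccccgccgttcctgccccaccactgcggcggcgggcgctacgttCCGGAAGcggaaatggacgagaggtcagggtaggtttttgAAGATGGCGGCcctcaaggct
MRPS10 (chr6:42217832-42217981, minus strand): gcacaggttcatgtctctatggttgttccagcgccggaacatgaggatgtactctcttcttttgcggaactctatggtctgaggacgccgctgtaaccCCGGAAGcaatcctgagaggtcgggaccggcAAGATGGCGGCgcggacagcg
MRPS31 (chr13:40771161-40771310, minus strand): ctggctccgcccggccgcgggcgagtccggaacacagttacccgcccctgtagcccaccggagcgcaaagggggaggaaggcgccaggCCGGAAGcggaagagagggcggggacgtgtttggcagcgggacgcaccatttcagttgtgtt

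In the MRPL38, MRPS10 and MRPS18A windows the YY1 letters lie after the start, and MRPS34 holds the ETS letters in 3 places before it. The same letters stood in the windows of genes with ratios above and below 1 in HCT116. The 13 genes with the YY1 letters had a median log2 ratio of knockdown over control of −0.39 in HCT116 cells, 0.41 in HT29 cells and 0.55 in SW480 cells, and the 48 without them had 1.13, 0.35 and 0.57. For the ETS letters the medians were 1.14, 0.36 and 0.61 in the 27 genes with them and 0.84, 0.33 and 0.51 in the 34 without. For the NRF1 letters they were 0.43, 0.37 and 0.46 in the 8 genes with them and 1.14, 0.35 and 0.55 in the 53 without. These medians were not corrected for the GC content of the transcripts, which the HCT116 ratios followed as described below. A match of letters is a description of the sequence and no evidence of binding.

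The libraries held 2187373 to 9317444 reads over listed genes, and the HCT116 knockdown library was the shallowest. BZW2 itself stood at 18.2% of its control in HCT116 (95% counting interval 12.1 to 26.5), 8.85% in HT29 (7.36 to 10.6) and 13.8% in SW480 (10.7 to 17.6), lower in all 3 lines as the labels say. Of 8 markers of colorectal epithelium 6 were listed in all 3 lines, and 0 of 9 markers of leukocytes, endothelium and fibroblasts were, while COL1A1, 1 of the fibroblast markers, was listed in HCT116 and SW480. The summed normalised read count of the epithelial markers in HCT116 was 52085 in knockdown and 13070 in control cells, and it was 83339 and 94293 in HT29 and 36891 and 37057 in SW480. Most of each sum came from KRT8, KRT18 and KRT19, and the markers differed in direction. EPCAM stood at 71.7%, 86.7% and 83.4% of control in HCT116, HT29 and SW480, and CDH1 at 47.9%, 59.2% and 33.4%. KRT18 was higher in all 3 lines, and KRT8, KRT19 and CDX2 were higher in HCT116 and lower in HT29. The HCT116 knockdown library also stood apart in base composition. Across 10040 genes the log2 ratio in HCT116 followed the GC content of the transcript with a Spearman correlation of 0.71, against 0.33 across 10354 genes in HT29 and −0.04 across 10273 genes in SW480. Results are therefore given for each line, and without HCT116 or with the GC and length trend subtracted where that matters.

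Mitochondrial ribosomal protein genes took a larger share of the reads in each knockdown library than in its control. The share was 0.550% in knockdown and 0.385% in control cells of HCT116 (95% Clopper-Pearson intervals 0.541 to 0.560 and 0.380 to 0.391). It was 0.523% and 0.416% in HT29 (0.518 to 0.528 and 0.411 to 0.420), and 0.561% and 0.382% in SW480 (0.555 to 0.567 and 0.376 to 0.387). The intervals do not overlap in any line, but they cover counting error only, since each value comes from 1 library. Because a share is relative to the rest of the library, more of these transcripts and less of other RNA per cell cannot be told apart. Large subunit genes held 1.62 reads for each read on small subunit genes in HCT116 knockdown cells and 1.39 in control cells. In HT29 this ratio was 1.5 and 1.41, and in SW480 it was 1.40 and 1.36.

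**Figure D1:**
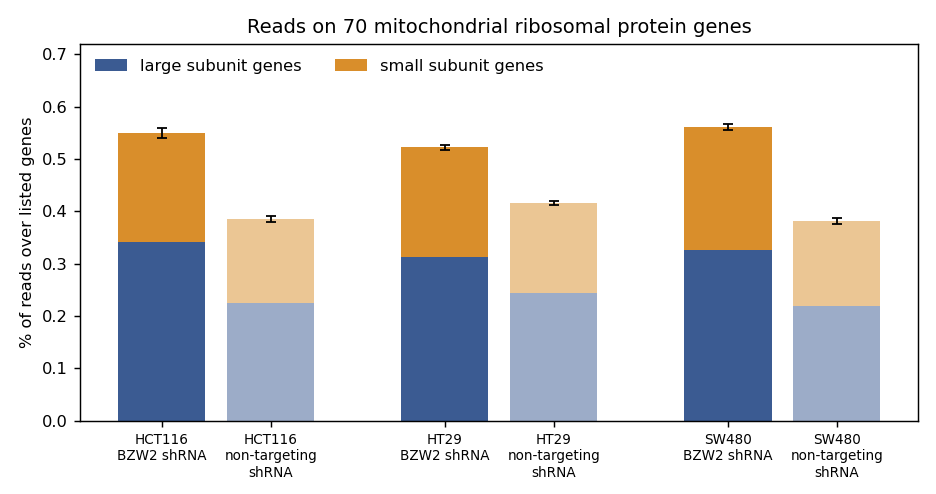
Reads on the 70 mitochondrial ribosomal protein genes as a percentage of all reads over listed genes, for the BZW2 shRNA and the non-targeting shRNA library of each line, split into large and small subunit genes; bars on top are 95% Clopper-Pearson intervals of the total. The 3 knockdown libraries lie between 0.523% and 0.561%, above the 3 control libraries at 0.382% to 0.416%.

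Gene by gene, the ratio of normalised read counts, knockdown over control in the same line, was above 1 for most of the family. It was above 1 for 51 of 70 genes in HCT116, where 50.2% of all 10875 genes listed in 3 lines were higher. In HT29 63 of 70 were higher, against 52.8% of all genes, and in SW480 65 of 70, against 52.7%. The 19, 7 and 5 genes below 1 in these lines compare with 49.8%, 47.2% and 47.3% of all genes. In all 3 lines together 48 genes were higher, 32 of the large and 16 of the small subunit, where 23.7% of all genes were. None of the 70 was lower in all 3 lines, where 19.8% of all genes were. In HT29 and SW480 alone 59 genes were higher in both, against 34.3% of all genes, and 1 was lower in both, MRPL10, against 28.9%. The 11 genes lower in HCT116 only included MRPL22, MRPL47, MRPS9 and MRPS36. These 11 are the genes of the 59 that are not among the 48, for which the shares of all genes were 34.3% and 23.7%.

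Sizes differed among the lines. With at least 50 reads over both libraries, 40 of 70 genes were at least 1.5-fold higher in HCT116 and 9 at least 1.5-fold lower, against 36.6% and 37.4% of all genes. With libraries scaled by their totals alone, which set the median log2 ratio of all genes in HCT116 at −0.36, these counts were 35 and 15, against 28.6% and 45.1% of all genes. In HT29 16 of 70 were at least 1.5-fold higher and 0 lower, against 15.0% and 15.0% of all genes. In SW480 34 of 69 were higher and 0 lower, against 17.1% and 15.8%. Past 2-fold, 35 genes were higher and 5 lower in HCT116, against 27.5% and 28.4% of all genes, 1 was higher and 0 lower in HT29, against 4.21% and 6.15%, and 6 were higher and 0 lower in SW480, against 5.57% and 6.56%. In all 3 lines at once 29 genes were higher by at least 25%, against 10.6% of all genes, and 8 were at least 1.5-fold higher, against 4.26%. None was lower by at least 20% or at least 1.5-fold lower in all 3, against 7.9% and 3.6% of all genes. Those 8 were MRPL9, MRPL11, MRPL18, MRPL37, MRPL51, MRPS7, MRPS15 and MRPS34.

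The large subunit genes had median log2 ratios of 1.23 in HCT116 cells, 0.36 in HT29 cells and 0.60 in SW480 cells, and the small subunit genes 0.52, 0.34 and 0.46, where the median of all genes was 0.01, 0.04 and 0.04. Averaged over the lines the medians were 0.73 ± 0.45 for the large and 0.44 ± 0.09 for the small subunit (SD, n = 3 lines). The large subunit exceeded the small by 0.71 in HCT116 cells, 0.02 in HT29 cells and 0.14 in SW480 cells, a mean of 0.29 that is smaller than its SD of 0.37 over the lines. With 3 lines an exact two-sided sign-flip test cannot go below p = 0.25, so no test of this difference was made. The gene names do not follow the structure in 3 cases. MRPS30 and MRPS18A encode proteins that sit in the large subunit, and MRPS36, also called KGD4, encodes a component of the α-ketoglutarate dehydrogenase complex. Grouped by structure the difference was 0.67, 0.01 and 0.02.

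**Figure D2:**
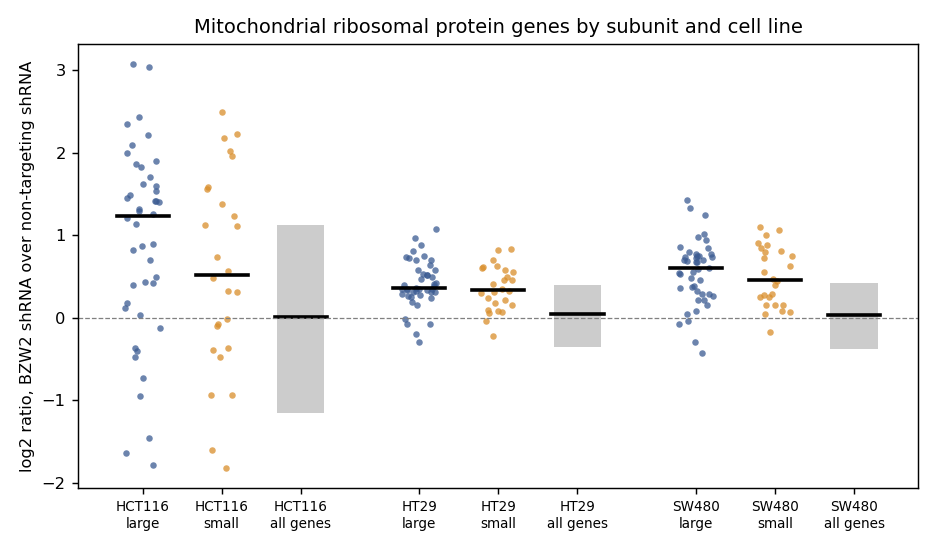
Log2 ratio of the normalised read count, BZW2 shRNA over non-targeting shRNA, in each line; points are the 44 large and 26 small subunit genes, black lines are medians and grey boxes span the middle 50% of all 10875 genes. Large subunit medians are 1.23, 0.36 and 0.60 and small subunit medians 0.52, 0.34 and 0.46 in HCT116, HT29 and SW480, and the points of HCT116 are spread most widely.

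The subunits were also compared by the base composition of their transcripts, whose part in the difference was not tested. Large subunit genes had a median GC content of 51.1% and small subunit genes 47.0%, against 48.1% for all genes listed in 3 lines. Among the 70 genes the log2 ratio followed GC content with a Spearman correlation of 0.78 in HCT116 and 0.43 in HT29, and of 0.09 among 69 genes in SW480. The 35 genes above the median GC content of the family, 49.6%, had median log2 ratios of 1.56 in HCT116 cells, 0.49 in HT29 cells and 0.55 in SW480 cells, and the 35 below it −0.02, 0.31 and 0.55. Within the genes below that median the large subunit exceeded the small by 0.15 in HCT116 cells, 0.10 in HT29 cells and 0.41 in SW480 cells, and within those above it by −0.07, −0.13 and −0.18. After a trend on GC content and length, fitted over all genes of each line, was subtracted, the large subunit medians were 0.78, 0.28 and 0.51 and the small subunit medians 0.67, 0.34 and 0.36, a difference of 0.11, −0.06 and 0.15. Both subunits therefore kept medians above 0 in each line, while the excess of the large subunit in HCT116 was smaller after the correction. In SW480 that excess was 0.14 before the correction and 0.15 after it. On the corrected ratios 53 genes were higher and 2 lower in all 3 lines, against 27.1% and 17.9% of all genes.

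**Figure D3:**
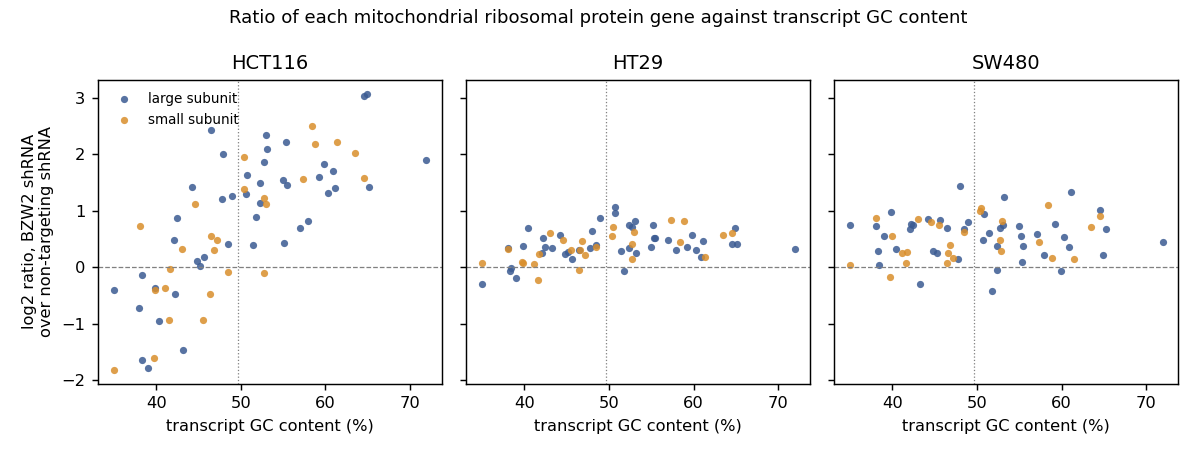
Log2 ratio, BZW2 shRNA over non-targeting shRNA, against the GC content of the longest coding transcript for each mitochondrial ribosomal protein gene, in 3 panels for the 3 lines; the dotted line is the median GC content of the family, 49.6%. The ratio climbs with GC content in HCT116 (Spearman 0.78) and shows little relation to it in SW480 (0.09).

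The order of levels within the family was kept in 2 of the lines. Per kilobase of transcript, the genes had a median normalised read count of 165 in knockdown and 88.5 in control cells of HCT116, 365 and 252 in HT29, and 229 and 160 in SW480. The median of all genes was 32.1 and 32.7, 92.7 and 92.7, and 60.7 and 58.1 in the same libraries. The Spearman correlation of the 70 levels between knockdown and control was 0.97 in HT29 and 0.92 in SW480 but 0.51 in HCT116, whereas the HCT116 control correlated at 0.97 with the SW480 control. Named here for its level, MRPL3, a protein of the core of the large subunit, was among the 3 highest per kilobase in every library, at 613 in knockdown and 336 in control HCT116 cells, 1423 and 1105 in HT29, and 870 and 516 in SW480. MRPL53, named for the same reason, was among the 3 lowest in HT29 and SW480, at 57.5 and 45.2 in HT29 and 19.5 and 20.0 in SW480.

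No gene of the family passed an adjusted p of 0.05 in limma over the 3 lines, and 0.0% of the 10875 genes tested did. The smallest adjusted p in the family was 0.298. At an unadjusted p under 0.05 in limma, 19 genes were higher, 12 of the large and 7 of the small subunit, and 0 were lower, against 6.59% and 7.04% of all genes. edgeR on the recovered reads gave 14 higher and 0 lower at that level, against 5.05% and 6.79% of all genes. DESeq2 gave 17 higher and 0 lower, against 6.92% and 8.7%. None of the 70 passed an adjusted p of 0.05 in edgeR or in DESeq2, where 1.01% of all genes were higher and 1.23% lower at that threshold in DESeq2. The limma estimate was positive for 62 of 70 genes and negative for 8, against 51.1% and 48.9% of all genes. The count of 19 was 6 without HT29, against 3.71% of all genes higher and 4.82% lower, and 8 without SW480, against 5.49% and 7.93%. It was 11 with scaling by library totals, against 4.32% and 7.04%, and 0 with no block for the line, against 0.892% and 0.864%. None of the 70 was lower at that level in these 4 fits. Without HCT116 it was 21 with 0 lower, against 9.67% and 8.53% of all genes, and 16 of the 21 were shared with the full fit. For 8 of the 19 the limma estimate was over 1.5 times as large with HCT116 as without it. Without it the estimate was 0.71 for MRPL38, 0.46 for MRPL4, 0.50 for MRPL15, 0.78 for MRPL37, 0.75 for MRPL49, 0.71 for MRPL9, 0.78 for MRPS12 and 0.65 for MRPS26. Without HCT116, 0 of the family passed an adjusted p of 0.05 in limma, against 1.72% of all genes higher and 1.39% lower. With the GC and length trend subtracted the count of 19 was 23 with 0 lower, against 11.6% and 7.71%, and 18 of the 23 were shared.

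**Figure D4:**
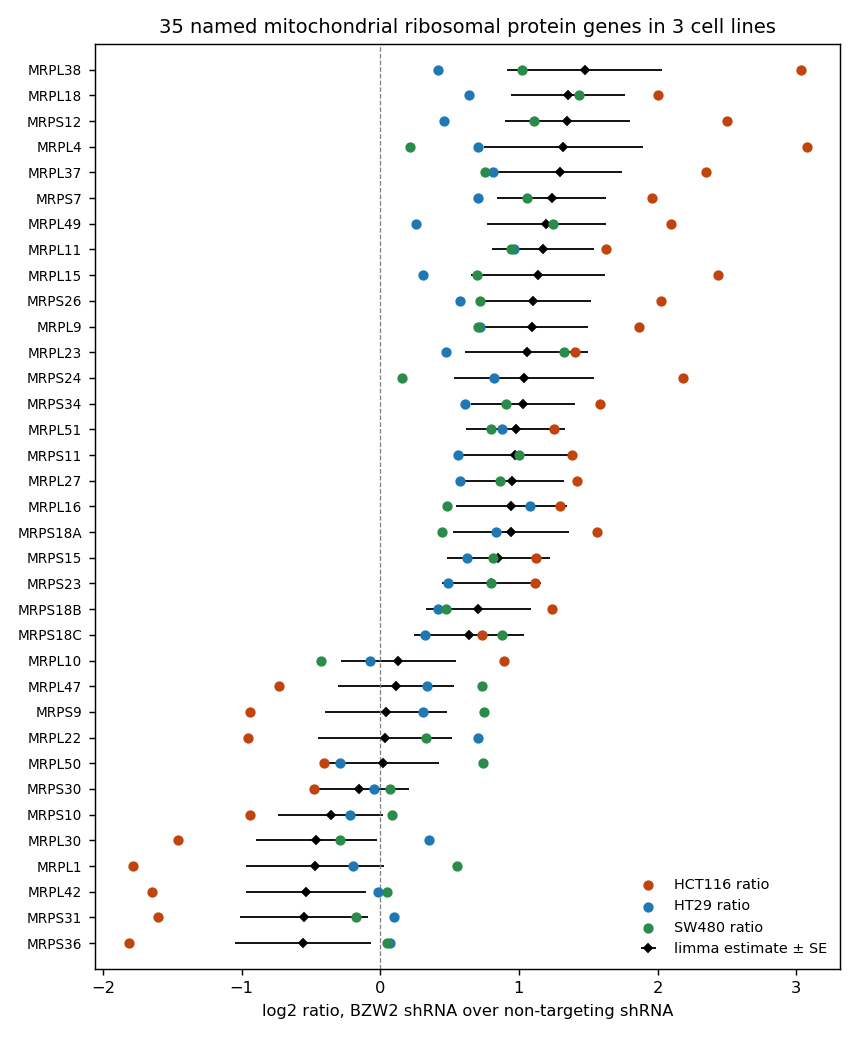
Log2 ratios, BZW2 shRNA over non-targeting shRNA, of 35 mitochondrial ribosomal protein genes in HCT116, HT29 and SW480 (coloured points), with the limma estimate over the 3 lines and its standard error (diamonds and lines), ordered by estimate. In the upper part of the plot all 3 lines lie above 0, and in the lowest 7 rows HCT116 lies farthest below 0, at −1.81 for MRPS36.

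Among large subunit genes that have bacterial counterparts, MRPL18 (ENSG00000112110, chromosome 6) had the smallest p in the family. Its protein belongs to the family that binds the smallest ribosomal RNA in bacteria. Its normalised read count was 531 in knockdown and 133 in control cells of HCT116, 287 and 184 in HT29, and 543 and 201 in SW480. The knockdown value was higher in each line. The folds were 4.0 (95% counting interval 3.36 to 4.77), 1.56 (1.29 to 1.89) and 2.70 (2.28 to 3.20), and the limma estimate was 1.35 ± 0.41 on the log2 scale (SE, n = 3 lines, adjusted p = 0.298). It was 1.32 with the GC and length trend subtracted.

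MRPL11 (ENSG00000174547, chromosome 11), a protein of the site where translation factors bind, had a normalised read count of 496 in knockdown and 161 in control cells of HCT116, 1065 and 546 in HT29, and 581 and 303 in SW480. Its folds were 3.09 (2.61 to 3.66), 1.95 (1.76 to 2.16) and 1.92 (1.66 to 2.22), with overlapping counting intervals in HT29 and SW480, and the limma estimate was 1.17 ± 0.37 (SE, adjusted p = 0.305). Without HCT116 the limma estimate was 0.95 with an adjusted p of 0.0631, the smallest in the family in that fit. Exons of MRPL11 overlap those of PELI3 on the other strand, and as the strandedness of the libraries is not given, reads of both cannot be told apart there.

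MRPL4 (ENSG00000105364, chromosome 19), which lines the tunnel through which new chains leave the ribosome, had the highest ratio of the family in HCT116. It had 452 normalised read counts in knockdown and 53.7 in control cells of HCT116, 165 and 101 in HT29, and 137 and 118 in SW480. The folds were 8.42, 1.63 and 1.16, so the SW480 fold, with a counting interval of 0.90 to 1.5, was not separated from 1. MRPL16, MRPL23 and MRPL15, also of bacterial descent, had limma estimates of 0.95, 1.06 and 1.14. MRPL16 had the highest ratio in HT29, 2.11-fold, and MRPL18 and MRPL23 had the highest in SW480, 2.70-fold and 2.51-fold.

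Of the large subunit genes specific to mitochondria, MRPL38 (ENSG00000204316, chromosome 17), a protein of the central protuberance, had the highest limma estimate of the family at 1.47 ± 0.56 (SE, n = 3 lines, adjusted p = 0.34). It had 350 normalised read counts in knockdown and 42.8 in control cells of HCT116, 104 and 77.8 in HT29, and 103 and 50.9 in SW480. The knockdown value was higher in each line, but the HT29 fold of 1.34 has a counting interval of 0.99 to 1.81. With the GC and length trend subtracted its estimate was 0.98. MRPL37, another mitochondria-specific protein, stood at 338 and 66.3 in HCT116, 514 and 293 in HT29, and 233 and 138 in SW480, again higher in the knockdown of each line, with folds of 5.09, 1.76 and 1.69. MRPL49 and MRPL51 had folds of 4.29 and 2.39 in HCT116, 1.19 and 1.84 in HT29, and 2.37 and 1.74 in SW480. MRPL49 overlaps exons of FAU and SYVN1 and MRPL51 those of NCAPD2, on the other strand.

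Among small subunit genes of bacterial descent MRPS12 (ENSG00000128626, chromosome 19), a protein of the decoding centre, had the highest estimate. It had 805 normalised read counts in knockdown and 143 in control cells of HCT116, 925 and 674 in HT29, and 602 and 280 in SW480. The folds were 5.65, 1.37 and 2.15, with a limma estimate of 1.35 ± 0.45 (SE, n = 3 lines, adjusted p = 0.31), or 0.94 with the GC and length trend subtracted. Its exons overlap those of SARS2, the mitochondrial seryl-tRNA synthetase, on the other strand. SARS2, looked at for this overlap, had lower normalised read counts, 120 and 20.3 in HCT116, 94.7 and 93.3 in HT29, and 52.5 and 45.3 in SW480. These counts are not set per length, and SARS2 too was higher in the HCT116 knockdown. As the strandedness of the libraries is not given, reads of MRPS12 and SARS2 cannot be told apart where they overlap.

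MRPS7 (ENSG00000125445, chromosome 17), a protein of the head of the small subunit, had 777 normalised read counts in knockdown and 200.1 in control cells of HCT116, 882 and 540 in HT29, and 694 and 333 in SW480. The knockdown value was higher in each line, with folds of 3.88, 1.63 and 2.08 and a limma estimate of 1.24 ± 0.39 (SE, adjusted p = 0.305). MRPS34 (ENSG00000074071, chromosome 16), a mitochondria-specific protein needed for a stable small subunit, had 547 and 183 in HCT116, 1308 and 855 in HT29, and 898 and 480 in SW480. Its folds were 3.0, 1.53 and 1.87, and its estimate was 1.03, or 0.57 with the trend subtracted. MRPS15 and MRPS11, which bind the RNA of the small subunit, had folds of 2.18 and 2.61 in HCT116, 1.55 and 1.47 in HT29, and 1.76 and 2.0 in SW480. The other genes with an unadjusted limma p under 0.05 were MRPL9, MRPL27, MRPS23 and MRPS26, with estimates of 1.09, 0.95, 0.80 and 1.10.

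The 3 paralogs MRPS18A, MRPS18B and MRPS18C are all relatives of 1 bacterial protein, and their products occupy different places, with the MRPS18A protein in the large subunit. All were higher in the knockdown library of each line. Their folds in HCT116 were 2.95 for MRPS18A, 2.35 for MRPS18B and 1.66 for MRPS18C. In HT29 they were 1.78, 1.33 and 1.3, and in SW480 1.36, 1.39 and 1.84. The limma estimates were 0.94 ± 0.42, 0.71 ± 0.38 and 0.64 ± 0.40 (SE), within 1 SE of each other.

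The lowest estimates of the family came from HCT116. MRPS36 had 31.0 normalised read counts in knockdown and 109 in control cells of HCT116, from 17 and 199 reads, 258 and 246 in HT29, and 225 and 218 in SW480. MRPL1, a protein of the mobile stalk near which spent tRNA leaves, had 42.0 and 145 in HCT116, 277 and 317 in HT29, and 335 and 229 in SW480. MRPS31 had 36.5 and 111 in HCT116, 318 and 297 in HT29, and 187 and 211 in SW480. In these 3 genes the ratio in HCT116 was 0.28, 0.29 and 0.33, while in HT29 and SW480 the ratios lay between 0.87 and 1.47. MRPL42, at 212 and 661 in HCT116, 988 and 998 in HT29, and 1048 and 1015 in SW480, showed the same division. The transcripts of MRPS36, MRPL1, MRPS31 and MRPL42 have GC contents of 35.0%, 39.1%, 39.7% and 38.4%, and the limma estimates of −0.55, −0.47, −0.55 and −0.54 were 0.05, −0.12, −0.25 and 0.48 with the GC and length trend subtracted. Annotated pseudogenes number 5 for MRPS36, 4 for MRPS31 and 4 for MRPL42, so the split of reads between gene and copies is uncertain. Of the other genes at the low end, MRPL30 had log2 ratios of −1.46, 0.35 and −0.29, MRPL50 −0.40, −0.29 and 0.74, and MRPS30 −0.48, −0.04 and 0.07 in HCT116, HT29 and SW480.

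MRPL10, which anchors the factor-binding stalk of the large subunit, was the gene lower in both HT29 and SW480. It had 319 normalised read counts in knockdown and 172 in control cells of HCT116, 274 and 288 in HT29, and 202 and 271 in SW480. The HT29 ratio of 0.95 has a counting interval of 0.80 to 1.13 and includes 1, and the SW480 ratio of 0.74 has an interval of 0.62 to 0.90. MRPS10, a small subunit protein, stood at 201 and 385 in HCT116, 1003 and 1169 in HT29, and 718 and 677 in SW480, with ratios of 0.52, 0.86 and 1.06.

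Genes of proteins with and without bacterial counterparts both had medians above 0 in each line. The 40 genes of bacterial descent had median log2 ratios of 1.17 in HCT116 cells, 0.43 in HT29 cells and 0.62 in SW480 cells, and the 29 genes of mitochondria-specific proteins 0.70, 0.32 and 0.48. The order of the ratios was shared in part, with a Spearman correlation over the 70 genes of 0.53 between HCT116 and HT29, 0.30 between HCT116 and SW480, and 0.40 between HT29 and SW480.

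Other genes of mitochondrial translation were counted in the same way. Of 5 mitoribosomal proteins with other names, 4 were higher and 0 lower in all 3 lines, against 23.7% and 19.8% of all genes. Their median log2 ratios were 0.94 in HCT116 cells, 0.61 in HT29 cells and 0.72 in SW480 cells. GADD45GIP1, a large subunit protein, had log2 ratios of 2.0, 0.89 and 0.86, AURKAIP1, a small subunit protein, had 2.11, 0.61 and 0.72, and both had an unadjusted limma p under 0.05, with estimates of 0.66 for AURKAIP1 and 0.87 for GADD45GIP1 without HCT116. PTCD3 was lowest, with a limma estimate of −0.17, or 0.16 without HCT116. Of 24 assembly and ribosomal RNA modification genes 13 were higher and 0 lower in all 3 lines, against 23.7% and 19.8% of all genes. ERAL1, a chaperone of the RNA of the small subunit, METTL17 and C1QBP had an unadjusted limma p under 0.05 among them. ERAL1 had the highest estimate, 1.39, with log2 ratios of 3.17, 0.62 and 0.43, and without HCT116 the estimate was 0.52. GTPBP10, a GTPase of large subunit assembly, had the lowest, −0.65, with log2 ratios of −1.90, −0.63 and 0.57. Its estimate was −0.03 without HCT116 and 0.36 with the GC and length trend subtracted. Of 20 mitochondrial tRNA synthetase and amidotransferase genes 10 were higher and 2 lower in all 3 lines, against 23.7% and 19.8% of all genes. GATB, a subunit of the amidotransferase, was highest, with log2 ratios of 1.71, 0.76 and 1.55 in HCT116, HT29 and SW480, and GARS1, which also serves the cytosol, lowest, with −1.29, −0.64 and −1.10. FARS2 and YARS2 also had an unadjusted limma p under 0.05, with estimates of 1.23 and 1.01, or 0.75 and 0.50 without HCT116.

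Genes that act beside the ribosome went in both directions. Of 15 translation factor genes 3 were higher and 3 lower in all 3 lines, near the 23.7% and 19.8% of all genes. Their median log2 ratios were −0.03, −0.01 and 0.16. LETM1, which binds mitochondrial ribosomes, and TSFM, the exchange factor of the elongation factor Tu, had estimates of 1.16 and 0.95 and an unadjusted limma p under 0.05. At that level 6.59% of all genes were higher. The initiation factor MTIF3 had the lowest estimate, −0.83, with log2 ratios of −2.0, −0.50 and −0.04. Without HCT116 the estimates were 0.67 for LETM1, 0.61 for TSFM and −0.27 for MTIF3. Of 16 genes of mitochondrial transcription and mRNA stability 6 were higher and 2 lower in all 3 lines, against 23.7% and 19.8% of all genes. None of the 16 had an unadjusted limma p under 0.05, where 6.59% of all genes were higher and 7.04% lower. POLRMT, the mitochondrial RNA polymerase, was highest at 1.00 with log2 ratios of 3.09, −0.02 and −0.08, so that estimate rests on HCT116. MTERF1 was lowest at −0.94, or −0.81 without HCT116. With the GC and length trend subtracted the estimates were 0.48 for POLRMT and −0.24 for MTERF1. Of 8 regulators of nuclear mitochondrial genes 1, NRF1, was higher in all 3 lines, against 23.7% of all genes. NRF1 had log2 ratios of 1.92, 0.42 and 0.39 and an estimate of 0.91, or 0.40 without HCT116. None of the 8 was lower in all 3 lines, against 19.8% of all genes, and GABPA was lowest, with −2.18, −0.70 and 0.23.

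The mitochondrially encoded mRNAs, which these ribosomes translate, lay on the other side. Of 13 such mRNAs 0 were higher and 10 lower in all 3 lines, against 23.7% and 19.8% of all genes. Their median log2 ratios were −1.66 in HCT116 cells, −0.89 in HT29 cells and −0.24 in SW480 cells. MT-ND4, MT-CO1, MT-CO3 and MT-ATP6 had an unadjusted limma p under 0.05, where 7.04% of all genes were lower. Their estimates were −1.20, −1.17, −1.28 and −1.17, and MT-CYB was highest at −0.54. Without HCT116 the first 4 estimates were −1.03, −0.93, −0.63 and −0.53. MT-CO1, a subunit of cytochrome c oxidase, had 2906 normalised read counts in knockdown and 9193 in control cells of HCT116, 10458 and 19426 in HT29, and 9199.7 and 17872 in SW480. None of the genes of these lists passed an adjusted p of 0.05 in limma. The lists were read beside the shares of all genes given above, and no test of a list was made.

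**Figure D5:**
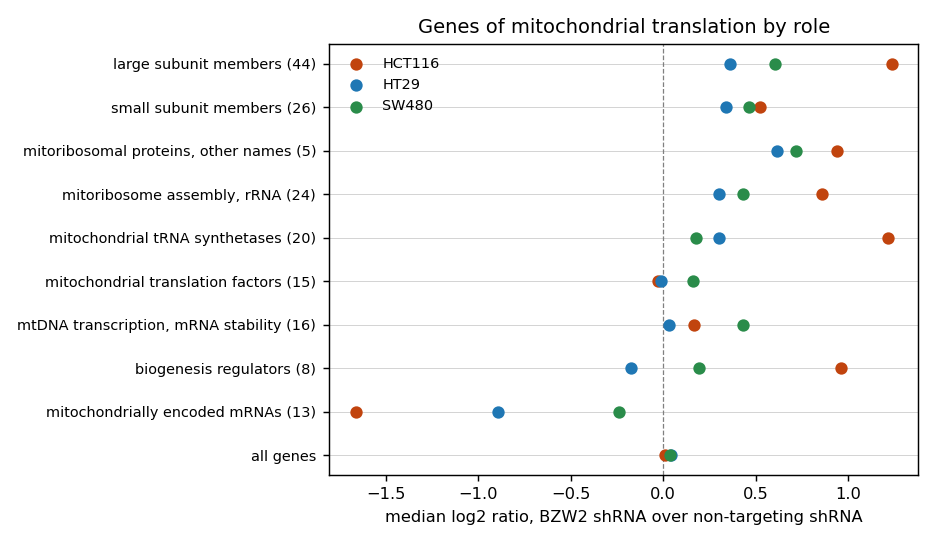
Median log2 ratio, BZW2 shRNA over non-targeting shRNA, of groups of genes of mitochondrial translation in HCT116, HT29 and SW480, with the number of genes in parentheses and the median of all genes in the bottom row. Large and small subunit genes, mitoribosomal proteins with other names, assembly genes and tRNA synthetases lie above 0 in each line, and mitochondrially encoded mRNAs lie below 0 in each, at −1.66, −0.89 and −0.24.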

How the data were processed

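Groups came from the treatment label of the 6 libraries and replicate numbers from the cell line. Per the submitters' processing notes, bcl2fastq 2.17, STAR 2.5.2b and DESeq were used with the GRCh38 build; the gene counter, the annotation and the strandedness were not given in the sources used here. The deposited values are a normalised signal per gene, which the authors made by dividing read counts by size factors; the values showed that these were set within each line, so levels were compared within a line. Whole reads were recovered for 100% of values within 0.1 read, with the smallest value of the SW480 control standing for 2 reads. Of 13040 identifiers, 19 with repeated rows were left out. Symbols came from a gene name table (13003 matched), and coordinates, GC content and the length of the longest coding transcript from GENCODE 29 (13018 matched). Of the 70 genes, 28 overlap exons on the other strand, 10 on the same strand and 29 have annotated pseudogenes, so their reads can be uncertain. The transcript used for MRPL42 has 15582 bases, so its level per kilobase is understated.

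Across lines the genes were tested with limma 3.58.1 (R 4.3.3) using log2(value + 1), a pseudocount of 1 that understates changes of low genes, with line and treatment as terms, an intensity trend and two-sided p, adjusted by Benjamini-Hochberg over 10875 genes listed in all 3 lines. A value of at least 1 in 3 libraries was required and removed 0 genes. The fit had 2 residual and 7.26 prior degrees of freedom. The pairing came from the shared line. With group means removed, Pearson correlations within a line were 0.28 (HCT116), 0.75 (HT29) and 0.45 (SW480). Between lines they were 0.38 for SW480 knockdown with HCT116 control and 0.23 for HCT116 knockdown with SW480 control. The others between lines were −0.67 to −0.29. This check therefore did not set the HCT116 pair apart from SW480. Counting intervals are 95% Clopper-Pearson intervals, which cover counting error only. The fewest reads of any of the 70 genes in a library were 16. Alternatives were edgeR 4.0.16 and DESeq2 1.42.0 on recovered reads, TMM and library size scaling, a pseudocount of 10, other filters, no block, each line left out, and loess subtraction of GC and length. The scripts were tested on simulated data.

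Genes were named by rule: per subunit the 6 highest and 4 lowest by mean log2 ratio, those with an unadjusted limma p under 0.05, per line the 3 highest and 3 lowest, those over 1.5-fold in opposite directions, the MRPS18 paralogs, and in other lists the highest, the lowest and those with an unadjusted limma p under 0.05, of which 1 is not reported here. Members and lists were chosen with earlier results of these data known.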

Additional observations from a re-analysis of the deposited data

Results flagged for a closer look

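MRPL22, a protein at the exit tunnel of the large subunit, was over 1.5-fold lower in HCT116 and over 1.5-fold higher in HT29. Its log2 ratios of knockdown over control were −0.95 in HCT116 cells, 0.70 in HT29 cells and 0.33 in SW480 cells, from 16 and 103 reads in HCT116, 211 and 137 in HT29, and 120 and 78 in SW480.

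MRPL47 and MRPS9 were over 1.5-fold lower in HCT116 and over 1.5-fold higher in SW480. MRPL47, a large subunit protein near the tunnel exit, had log2 ratios of −0.73 in HCT116 cells, 0.34 in HT29 cells and 0.73 in SW480 cells. MRPS9, a small subunit protein, had −0.94, 0.31 and 0.75.

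In these 3 genes the difference between lines was not tested, since each line has 1 library per treatment. Their transcripts have GC contents of 40.4% for MRPL22, 38.0% for MRPL47 and 45.5% for MRPS9, below the family median of 49.6%.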

How the results depend on the processing

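The count of 48 genes higher in all 3 lines was 43 to 53 under TMM, library size scaling, the GC and length correction and a mean of at least 50 reads, whereas 2 rather than 0 were lower in all 3 after the GC and length correction. At an unadjusted limma p under 0.05 the count of 19 higher ranged over 6 to 21 with a line left out, was 11 with library size scaling and 0 with no replicate block for the line; 0 were lower in each, and 0 passed the adjusted threshold in any fit run. With a line left out, the large subunit median averaged 0.48 to 0.92, the small 0.40 to 0.49 and their difference 0.08 to 0.43. With library size scaling the small subunit median was 0.32 over the lines and 0.15 in HCT116, and with the GC and length correction 0.67 in HCT116 and 0.36 in SW480. Large minus small was then 0.11 in HCT116 and −0.057 in HT29, which turned its direction. Genes past the fold in HCT116 and lower numbered 15 with library size scaling, against 45.1% of all genes, and 5 at 2-fold, against 28.4%. They numbered 5 with the correction and 15 at a threshold of 20% lower. Those higher numbered 42 at a threshold of 25% higher and 1 at 2-fold in HT29 and 6 at 2-fold in SW480, where 1 was lower by over 20%. At 2-fold 4.21% of all genes were higher in HT29 and 5.57% in SW480. For the correction and the thresholds of 20% and 25% within a line no share of all genes is given here.

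The sign of the estimate turned for 10 of the 35 named genes. With a line left out the limma estimate ranged over −0.98 to 0.18 for MRPL1, −0.25 to 0.41 for MRPL10, −0.30 to 0.51 for MRPL22, −0.87 to 0.032 for MRPL30, −0.83 to 0.015 for MRPL42, −0.19 to 0.53 for MRPL47, −0.34 to 0.23 for MRPL50, −0.26 to 0.013 for MRPS30, −0.87 to 0.059 for MRPS36 and −0.31 to 0.53 for MRPS9. With the GC and length correction MRPL10 was −0.17, MRPL42 0.48 and MRPS36 0.047. With library size scaling MRPL22 was −0.087, MRPL47 −0.0071, MRPL50 −0.11 and MRPS9 −0.079. With TMM MRPL22 was −0.0011 and MRPL50 −0.018, and MRPL50 was −0.035 in edgeR and −0.022 in DESeq2. The cause was not tested. The HCT116 knockdown library, with 2187373 reads, limits the precision of the lowest genes.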

Other observations

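Among the 70 genes the ratio of knockdown over control was highest in HCT116 for 41, in SW480 for 22 and in HT29 for 7. It was lowest in HCT116 for 24, in HT29 for 27 and in SW480 for 19. Over all 10875 genes the log2 ratios were spread most widely in HCT116, with an SD of 1.59, against 0.67 in HT29 and 0.68 in SW480. No share of all genes is given for these counts, so they are not read as a trait of the family.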
